A study of Sus scrofa with 4 samples.

Results

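The 52 genes described here carry out mitosis: the cyclins and kinases that start it, the centromere and kinetochore proteins that attach chromosomes to the spindle, the spindle checkpoint, the motors, and the proteins that divide the cell. They were taken by gene symbol from a table of 16026 genes, where each symbol stood on a single row, and all 52 passed the filter on low counts that left 11967 tested genes. Polyadenylated RNA was sequenced from induced pluripotent stem cells of the Bamei black pig, a Chinese breed, with a labelled development stage of 26.5 days in every library. The knockdown group had hairpin RNA against LIN28A (genotype shLin28a) and the control group was labelled Negative Control, with library titles that begin shNC. Each group had 2 libraries, called knockdown 1 and 2 and control 1 and 2 in the order of the labels. Whether both knockdown libraries hold 1 hairpin sequence is not labelled, and neither is whether the libraries of a group are separate cultures. The p-values therefore reflect variation among 4 libraries, which may be technical. Nothing in the labels names the reprogramming factors or any feeder cells.

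Entry into mitosis is driven by CDK1 bound to cyclin A or B, and CDC25 phosphatases switch that kinase on. Chromosomes then bind spindle microtubules through kinetochores, which are built on centromeres marked by the histone variant CENP-A. The spindle checkpoint holds back the anaphase-promoting complex (APC/C), a ubiquitin ligase, until every kinetochore is attached, and the APC/C then has securin and cyclin B destroyed. Most of these genes are transcribed in the G2 phase and mitosis, so in bulk RNA their levels are commonly read as a sign of proliferation. Pluripotent stem cells are known for a short cell cycle with a brief G1 phase. In bulk RNA, fewer cells in mitosis and less RNA of these genes per cell cannot be told apart.

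LIN28A, the target of the hairpin and an RNA-binding protein that blocks let-7 microRNAs, was at 3.14 and 2.58 FPKM in knockdown 1 and 2, against 32.6 and 17.2 in control 1 and 2. FPKM is the number of fragments scaled to transcript length and library total. The LIN28A values rested on 12 and 3 counts in the knockdown libraries, against 184 and 59 in the controls, which limits their precision. The edgeR log2 fold change of LIN28A was −2.92 ± 0.49 (SE). The p adjusted over all genes was 0.259 in edgeR and 0.0108 in DESeq2, which called it. Summed counts ran from 2400985 in knockdown 2 to 11847343 in control 1. Among markers of pluripotent cells, POU5F1 was at 41.4 and 16.6 FPKM in the knockdown libraries, against 43.4 and 37.7 in the controls. SOX2 was at 109 and 53.5 FPKM in the knockdown, against 91.9 and 80.9 in the controls. NANOG stood on 2 rows, none above 0.70 FPKM in any library, so this defining marker was close to 0 in all 4. ESRRB, another such marker, was at 0.03 and 0 FPKM in the knockdown and at 0 in both controls. SALL4, a zinc finger factor of these cells, was at 7.71 and 3.25 FPKM in the knockdown, against 19.2 and 19.2 in the controls, with an adjusted p of 0.301 in edgeR and 0.0121 in DESeq2. LIN28B, the paralogue of LIN28A, had a log2 fold change of −0.88 and KLF4 of 1.24. Of the 15 markers listed, 6 were tested, LIN28A included. Of these 6, 4 were negative, with a median of −0.58. DESeq2 called 2 of them lower, the hairpin target LIN28A and SALL4, against 0.292% of all tested genes.

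As a group, the mitotic genes were lower in the knockdown by a small amount, and no single gene passed the test. Of the 52, 50 had a negative edgeR log2 fold change, against 48.8% of all tested genes. Their median was −0.35, where that of all tested genes was 0.01. In 38 of the 52, both knockdown libraries lay below both controls on the scale of CPM after TMM, which are counts scaled to the library total and corrected for library composition; this was so for 22.9% of all tested genes. In 1 gene, UBE2C, both knockdown libraries lay above both controls, against 18.8% of all tested genes. No member was called at an edgeR p adjusted over all genes under 0.05, and neither was any other gene (0.0%). The smallest adjusted p among the members was 0.414. At an unadjusted edgeR p under 0.05, 4 members were lower, beside 3.45% of all tested genes, and 0 were higher, beside 4.26%. DESeq2 called 0 members, against 0.292% of genes lower and 0.819% higher. The median standard error of the members' log2 fold changes was 0.23, of the same order as the differences themselves.

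Read on FPKM alone, knockdown 2 was the lowest library for all 52 genes, where it was the lowest for 64.1% of all tested genes. On CPM after TMM it was the lowest for 48 of the 52, against 42.2% of all tested genes. The TMM factor of knockdown 2 was 0.798, against 1.07 in knockdown 1 and 1.10 and 1.07 in control 1 and 2. The members took 0.724% and 0.413% of all counts in knockdown 1 and 2, against 0.889% and 0.757% in control 1 and 2. Their median level was 34.4 and 20.7 FPKM in the knockdown libraries, against 45.7 and 39.2 in the controls.

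**Figure D1:**
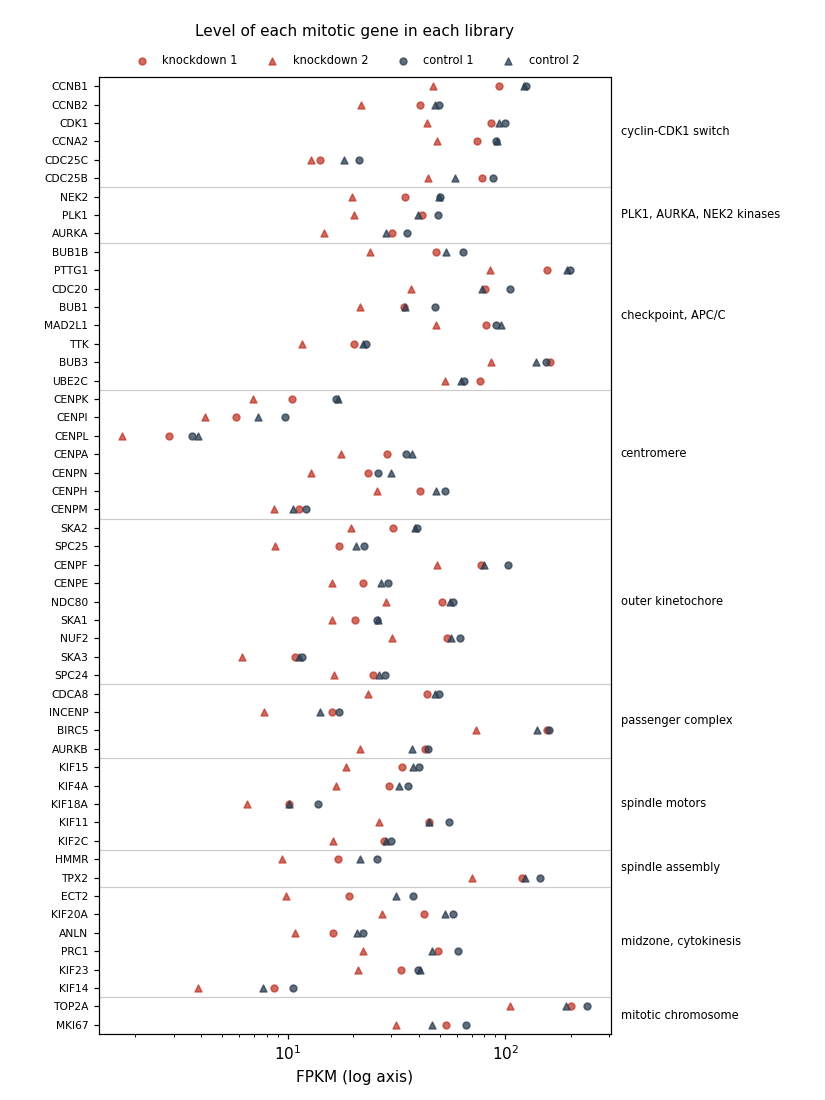
FPKM (log axis) of each of the 52 mitotic genes, grouped by role, with knockdown libraries in red and control libraries in dark blue (circles for library 1, triangles for library 2). The red triangle of knockdown 2 is the leftmost point in all 52 genes, while knockdown 1 lies close to the controls in many of them.

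The cyclins and CDK1 showed this pattern throughout. CCNB1, cyclin B1, which carries CDK1 into mitosis, was at 93.2 and 46.6 FPKM in the knockdown libraries, against 124 and 122 in the controls. Both knockdown libraries lay below both controls, and the gap between the knockdown libraries was wider than that between knockdown 1 and either control. Its mean was 69.9 ± 32.9 FPKM in the knockdown and 123 ± 1.82 in the controls (SD, n = 2 each), and the edgeR log2 fold change was −0.64 ± 0.28 (SE) with an adjusted p of 0.606. CCNB1 lies on chromosome 16 at 47338239 to 47348385 of the build Sscrofa11.1. CDK1, the kinase itself, was at 85.5 and 43.5 FPKM in the knockdown, against 99.5 and 93.8 in the controls (log2 fold change −0.40 ± 0.25, SE). CCNA2, cyclin A2, which acts in S phase and at mitotic entry, was at 74.1 and 48.4 FPKM, against 90.2 and 91.3 in the controls (−0.37 ± 0.21, SE). CCNB2, a second B-type cyclin, and CDC25C, a phosphatase that activates CDK1, also did not overlap, with log2 fold changes of −0.41 and −0.35. CDC25B, the phosphatase linked to the start of CDK1 activation, was the exception, at 78.2 and 44.3 FPKM in the knockdown and 87.9 and 58.4 in the controls. Its groups overlapped, since knockdown 1 lay above control 2, and its log2 fold change of −0.09 ± 0.30 (SE) turned positive without knockdown 2 or control 1.

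Of the kinases that act beside CDK1, NEK2 differed most from the controls. NEK2, which helps to separate the centrosomes, was at 34.5 and 19.7 FPKM in the knockdown, against 50.1 and 49.3 in the controls. Both knockdown libraries lay below both controls, and the log2 fold change was −0.68 ± 0.22 (SE), with an unadjusted edgeR p of 0.0250 and an adjusted p of 0.569. PLK1, polo-like kinase 1, which acts in centrosome maturation and kinetochore attachment, was at 41.5 and 20.2 FPKM in the knockdown, against 49.1 and 39.9 in the controls. AURKA, the centrosomal Aurora kinase, was at 30.2 and 14.8 FPKM, against 35.2 and 28.3 in the controls. For PLK1 and AURKA knockdown 1 lay between the controls and only knockdown 2 lay below them, with log2 fold changes of −0.35 ± 0.29 and −0.29 ± 0.26 (SE).

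The checkpoint and APC/C genes were spread more widely. PTTG1, securin, the inhibitor of separase, was at 155 and 84.9 FPKM in the knockdown, against 199 and 192 in the controls (log2 fold change −0.51 ± 0.23, SE). BUB1B, the checkpoint protein BubR1, was at 48.1 and 23.8 FPKM, against 63.8 and 53.4 in the controls (−0.53 ± 0.29, SE). In both genes the groups did not overlap. BUB1 and TTK, kinases of the checkpoint, and MAD2L1, which binds CDC20 until attachment is complete, had log2 fold changes of −0.36, −0.33 and −0.33, again without overlap on CPM after TMM. CDC20, the activator of the APC/C that the checkpoint restrains, was at 80.4 and 37.0 FPKM in the knockdown, against 105 and 78.3 in the controls (−0.47 ± 0.31, SE), with knockdown 1 between the controls. BUB3, which brings BUB1 and BubR1 to the kinetochore, was at 160 and 86.4 FPKM in the knockdown, against 153 and 138 in the controls (−0.15 ± 0.26, SE), so knockdown 1 was the highest library and knockdown 2 the lowest, and the sign turned without knockdown 2.

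UBE2C, the ubiquitin-conjugating enzyme that works with the APC/C, went the other way on CPM after TMM. Its level was 76.5 and 53.1 FPKM in the knockdown, against 64.7 and 62.3 in the controls, so the groups overlapped in FPKM. With TMM its log2 fold change was 0.24 ± 0.18 (SE), and the adjusted edgeR p was 0.664. It lies on chromosome 17 at 48018403 to 48021542. CENPM, a centromere subunit, was the other member with a positive value, 0.05 ± 0.23 (SE), which turned negative when total counts or upper-quartile factors replaced TMM and without knockdown 2 or control 2.

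The centromere genes other than CENPM had both knockdown libraries below both controls on CPM after TMM, as did 22.9% of all tested genes. The median log2 fold change over all 7 was −0.44. CENPA, the histone variant that marks the centromere, was at 28.5 and 17.6 FPKM in the knockdown, against 34.9 and 37.2 in the controls (log2 fold change −0.44 ± 0.20, SE). CENPK, a subunit of the inner kinetochore network, was at 10.5 and 6.94 FPKM in the knockdown, against 16.7 and 17.0 in the controls, without overlap. Its log2 fold change was −0.75 ± 0.21 (SE), with an unadjusted edgeR p of 0.0156 and an adjusted p of 0.537, and it lies on chromosome 16 at 44008673 to 44080565. The count behind the value in knockdown 2 was 25, with an exact Poisson 95% interval of 16.2 to 36.9, which covers counting error only. CENPH, a subunit of the same network and the most abundant of these 7 genes, was at 40.6 and 25.6 FPKM, against 52.8 and 48.0 in the controls (−0.40 ± 0.20, SE). CENPI, CENPL and CENPN, further subunits, had log2 fold changes of −0.55, −0.49 and −0.42. CENPM was at 11.3 and 8.67 FPKM in the knockdown, against 12.1 and 10.6 in the controls.

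All 9 outer kinetochore genes, which hold the microtubule, had both knockdown libraries below both controls on CPM after TMM. This was so for 22.9% of all tested genes. The differences of the 9 were small, from −0.44 to −0.19 on the log2 scale. The 4 subunits of the NDC80 complex, the main microtubule attachment, had similar log2 fold changes, from −0.35 to −0.19, but different levels. NDC80 was at 51.4 and 28.3 FPKM in the knockdown and 57.4 and 55.7 in the controls. NUF2 was at 53.8 and 30.2 FPKM in the knockdown and 62.0 and 56.2 in the controls. SPC24 was at 24.7 and 16.3 FPKM in the knockdown and 28.0 and 26.3 in the controls, and SPC25 was at 17.2 and 8.72 against 22.5 and 20.6. Per length, NUF2 RNA stood at 1.05 and 1.07 times that of NDC80 in the knockdown libraries and at 1.08 and 1.01 times in the controls, so this proportion was nearly the same in all 4 libraries. SPC25 stood at 0.334 and 0.308 times NDC80 in the knockdown, against 0.392 and 0.370 in the controls. SPC24 stood at 0.481 and 0.576 against 0.488 and 0.473. These ratios use FPKM. On counts, the edgeR log2 fold changes of SPC25 and NDC80 were close, at −0.35 ± 0.23 and −0.32 ± 0.24 (SE).

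The SKA complex, which tracks microtubule ends beside NDC80, was represented by 3 genes. SKA2 was at 30.3 and 19.5 FPKM in the knockdown, against 39.2 and 38.4 in the controls, and had the lowest log2 fold change of the outer kinetochore, −0.44 ± 0.21 (SE). SKA1 was at 20.4 and 16.0 FPKM, against 25.7 and 26.1 in the controls, and SKA3 at 10.9 and 6.20, against 11.7 and 11.2. Their log2 fold changes were −0.30 and −0.23. CENPF, a large coat protein of the kinetochore and the most abundant of these 9 genes, was at 77.3 and 48.5 FPKM in the knockdown, against 103 and 79.9 in the controls (−0.34 ± 0.28, SE). CENPE, a kinetochore motor that aligns chromosomes, had a log2 fold change of −0.33 ± 0.22 (SE).

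The chromosomal passenger complex, which corrects faulty attachments and later acts at the midzone, had the median log2 fold change nearest to 0 of the role groups, −0.21 over its 4 genes. AURKB, its kinase, was at 42.7 and 21.4 FPKM in the knockdown, against 44.1 and 37.2 in the controls (log2 fold change −0.11 ± 0.26, SE). BIRC5, survivin, was at 155 and 73.3 FPKM, against 159 and 140 in the controls (−0.20 ± 0.27, SE). INCENP, the scaffold, was at 15.9 and 7.75 FPKM, against 17.2 and 14.0 in the controls (−0.22 ± 0.27, SE). In these 3 genes knockdown 2 was the lowest library and knockdown 1 lay within or above the range of the controls on CPM after TMM, and without knockdown 2 all 3 turned positive. CDCA8, borealin, was at 43.7 and 23.5 FPKM, against 49.7 and 47.7 in the controls (−0.35 ± 0.24, SE), and did not overlap.

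The 5 spindle motors lay close together, with log2 fold changes from −0.39 to −0.22. On CPM after TMM, both knockdown libraries lay below both controls in all 5, against 22.9% of all tested genes. KIF11, the motor that pushes spindle poles apart, was at 44.5 and 26.2 FPKM in the knockdown, against 54.8 and 44.7 in the controls (−0.30 ± 0.25, SE). KIF15, which shares that task, was at 33.6 and 18.6 FPKM, against 40.2 and 37.8 in the controls (−0.39 ± 0.25, SE). KIF4A, a chromosome-bound motor, KIF18A, which damps chromosome movement, and KIF2C, which takes microtubules apart at kinetochores, had values of −0.39, −0.32 and −0.22. Of the spindle assembly genes, HMMR, which organises spindle poles, was at 17.1 and 9.41 FPKM in the knockdown, against 25.7 and 21.5 in the controls. Its log2 fold change was −0.63 ± 0.24 (SE), with an unadjusted edgeR p of 0.0451 and an adjusted p of 0.606. TPX2, which activates AURKA on the spindle, was at 119 and 70.5 FPKM, against 144 and 123 in the controls (−0.32 ± 0.26, SE).

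ECT2, among the genes of the midzone and cytokinesis, had the most negative log2 fold change of the 52. ECT2 is the exchange factor that activates RhoA, the switch for the contractile ring. It was at 19.2 and 9.83 FPKM in the knockdown, against 37.7 and 31.5 in the controls, and both knockdown libraries lay far below both controls. The mean was 14.5 ± 6.60 FPKM in the knockdown and 34.6 ± 4.35 in the controls (SD, n = 2 each). The edgeR log2 fold change was −1.07 ± 0.26 (SE), with an unadjusted p of 0.00857 and adjusted p of 0.414 in edgeR and 0.145 in DESeq2. It lies on chromosome 13 at 111248215 to 111310746. The other genes of the division site were nearer to the rest of the set. ANLN, anillin, the scaffold of the contractile ring, was at 16.1 and 10.9 FPKM in the knockdown, against 22.3 and 20.7 in the controls (−0.44 ± 0.20, SE). The ratio of ECT2 to ANLN in FPKM was 1.19 and 0.904 in the knockdown libraries, against 1.69 and 1.52 in the controls, without overlap. KIF20A, a midzone motor and the most abundant of these 6 genes, was at 42.5 and 27.2 FPKM, against 57.6 and 53.1 in the controls (−0.47 ± 0.22, SE). PRC1, which bundles midzone microtubules, KIF23, a motor of the centralspindlin complex, and KIF14, a cytokinesis motor, had log2 fold changes of −0.40, −0.36 and −0.36, and PRC1 and KIF14 overlapped between the groups.

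Both genes of the mitotic chromosome overlapped between the groups. TOP2A, topoisomerase II alpha, which untangles sister chromatids, had the highest level of the set, at 200.4 and 105 FPKM in the knockdown and 238 and 190.2 in the controls (−0.31 ± 0.32, SE). MKI67, the proliferation antigen Ki-67, which coats mitotic chromosomes, was at 53.4 and 31.4 FPKM in the knockdown and 65.8 and 46.1 in the controls (−0.20 ± 0.30, SE), and its sign turned without control 1. In both, control 2 was below knockdown 1 on FPKM and on CPM after TMM.

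**Figure D2:**
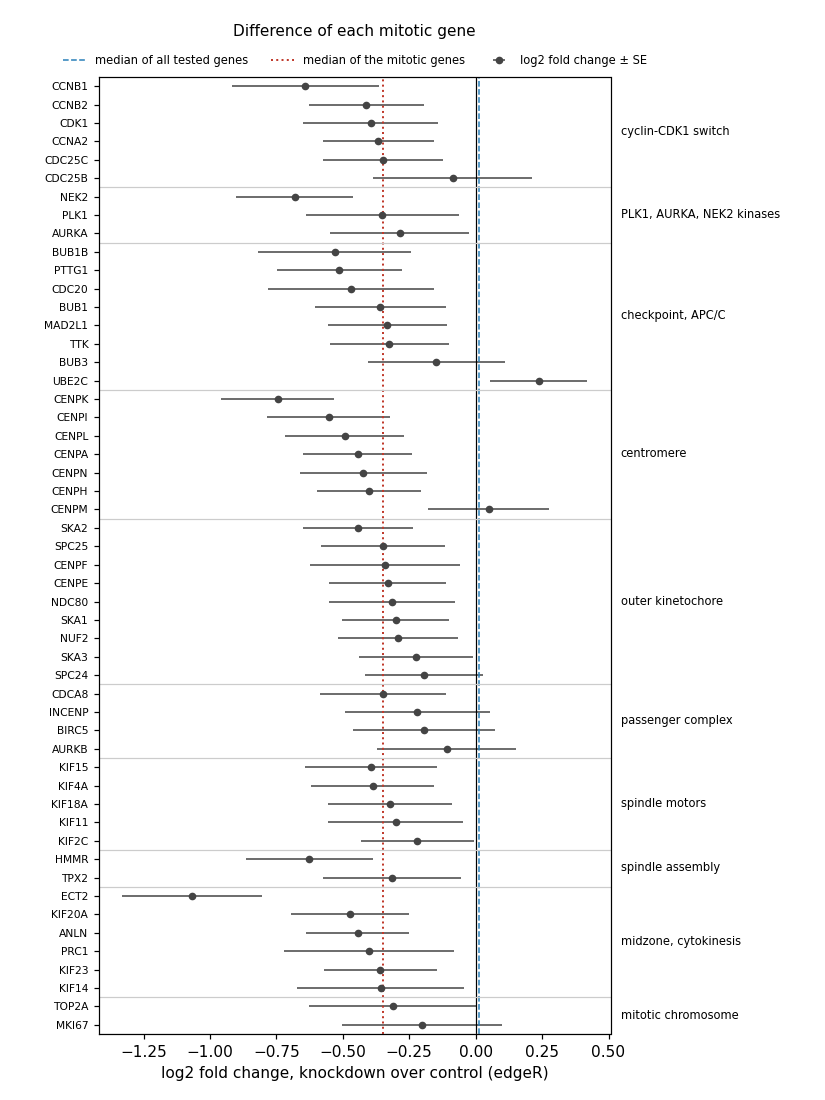
edgeR log2 fold change (knockdown over control) of each mitotic gene with its standard error, grouped by role; the dotted red line is the median of the set and the dashed blue line that of all tested genes. ECT2 lies farthest to the left at −1.07, and UBE2C at 0.24 and CENPM at 0.05 are the points to the right of 0.

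Levels within the set spanned a range of 60.6-fold in mean FPKM over the 4 libraries. TOP2A was followed by PTTG1, BUB3 and BIRC5, and the lowest were CENPL at 2.86 and 1.74 FPKM in the knockdown and 3.62 and 3.88 in the controls, CENPI, and KIF14. The members lie on 19 chromosomes. On chromosome 16, CCNB1, PTTG1, CENPH, CENPK and HMMR had a median log2 fold change of −0.63, a grouping noticed after the values were seen, while all 231 tested genes of that chromosome had a median of −0.07. Estimated counts were not whole numbers in at least 1 library for AURKA, CENPK, SKA3, KIF2C, HMMR and KIF20A, so some of their reads were shared out between genes.

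To see which members stood apart from the set, each FPKM was divided by the median of the 52 genes in the same library, a ratio that no scaling between libraries can change. Its values were compared on the log2 scale. ECT2 stood at −0.84 and −1.07 in the knockdown libraries, against −0.28 and −0.31 in the controls. NEK2 stood at 0.01 and −0.07, against 0.13 and 0.33 in the controls, CENPK at −1.71 and −1.58, against −1.45 and −1.20, and HMMR at −1.01 and −1.14, against −0.83 and −0.86. With CCNB1, at 1.440 and 1.17 against 1.445 and 1.64, these were the 5 members whose knockdown libraries both lay below both controls, where this held for 4.29% of the 11858 tested genes above 0 FPKM in every library. UBE2C stood at 1.16 and 1.36 in the knockdown, against 0.50 and 0.67 in the controls, and was the member with the largest difference upward. CENPM stood at −1.60 and −1.26, against −1.92 and −1.88 in the controls, BUB3 at 2.22 and 2.06, against 1.75 and 1.82, CDC25B at 1.19 and 1.10, against 0.94 and 0.58, and AURKB at 0.31 and 0.05, against −0.05 and −0.07. Upward, 13 members did not overlap, beside 59.4% of all tested genes. All tested genes stand higher on this scale because its divisor is the lower set of mitotic genes. The same divisor keeps the downward share of 4.29% low, so neither share can be set against the members' counts. The counts of 5 and 13 therefore have no reference here, and CCNB1 was among the 5 by a narrow margin.

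**Figure D3:**
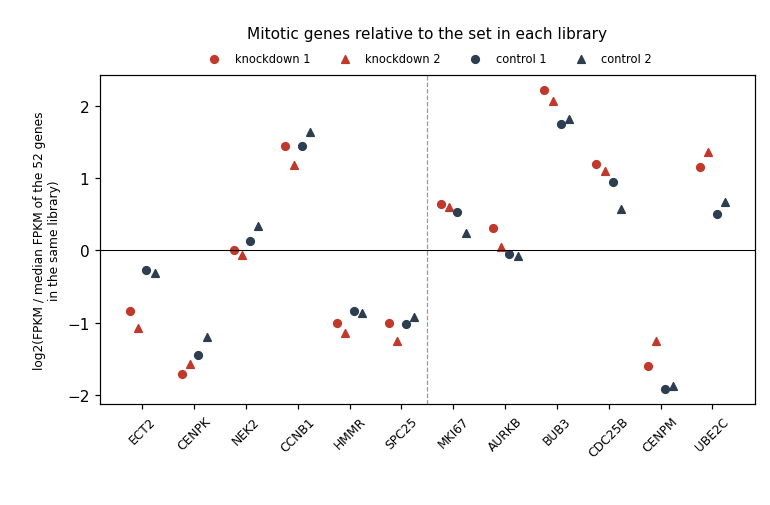
log2 of FPKM over the median FPKM of the 52 mitotic genes in the same library, for the 6 genes with the most negative (left of the dashed line) and the 6 with the most positive difference between groups; red points are knockdown and dark blue points control libraries. ECT2 is lower and UBE2C higher in each knockdown library than in either control, while SPC25 overlaps.

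The size of the difference depended on the knockdown library. Relative to the control mean, on log2 CPM after TMM, the median of the 52 genes was −0.19 in knockdown 1 and −0.55 in knockdown 2, where the median of all tested genes was 0.02 and −0.07. In control 2 relative to control 1 it was −0.08 for the mitotic genes. Knockdown 2 was below knockdown 1 in 49 of the 52. Without knockdown 2 the median edgeR log2 fold change was −0.21, with 46 of 52 negative, and without knockdown 1 it was −0.56, with 50 of 52 negative. Knockdown 1 by itself lay below both controls in 38 members, against 33.1% of all tested genes, and knockdown 2 in 50 members, against 47.3%. Without knockdown 1, edgeR called 0.772% of all tested genes lower and 9.11% higher, and 3 members lower: ECT2 at −1.38 (adjusted p 0.0388), CCNB1 at −0.96 (adjusted p 0.0447) and NEK2 at −0.90 (adjusted p 0.0450). In that fit knockdown 2 is the lone library of its group and is assumed to vary as the controls do. Members lower at an unadjusted edgeR p under 0.05 numbered 32 without knockdown 1, against 10.1% of all tested genes, and 3 without knockdown 2, against 3.78%. They numbered 0 without control 1, against 1.33%, and 1 without control 2, against 1.34%.

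Markers of fibroblasts moved with the same library. Of 26 listed, 20 were tested and 19 of these had a positive edgeR log2 fold change, with a median of 1.17. On CPM after TMM, both knockdown libraries lay above both controls in 3, against 18.8% of all tested genes, and 16 overlapped. THY1 was the negative member, at −1.17 ± 0.25 (SE), with both knockdown libraries below both controls. The median of the list relative to the control mean was −0.09 in knockdown 1 and 1.87 in knockdown 2, and control 2 was 0.84 above control 1. The summed level of the list was 816 and 2113 FPKM in the knockdown libraries, against 610 and 974 in the controls. COL1A1, the main fibrillar collagen, was at 56.5 and 206 FPKM in the knockdown, against 17.6 and 52.8 in the controls, while DCN was at 0 in both knockdown libraries and at 3.08 and 0.21 in the controls. LUM was at 0 in knockdown 2 and in both controls, and COL6A3 at 0 in both knockdown libraries. Relative to the control mean, the mitotic medians were −0.19 in knockdown 1 and −0.55 in knockdown 2. The part of the fibroblast markers in the lower level of the mitotic genes was not tested. Markers of neurons and their precursors had a median log2 fold change of 0.80, with 7 of 10 tested members positive. Against the control mean the neural median was 0.98 for knockdown 1 and 0.41 for knockdown 2, so this list was higher in knockdown 1. DESeq2 called 2 of its members, NEUROD4 and DCX, higher, against 0.819% of all tested genes. The summed level of the neural list was 264 and 134 FPKM in the knockdown, against 175 and 133 in the controls. None of the 10 tested neural markers was at 0 in any library. Their part was not tested either.

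**Figure D4:**
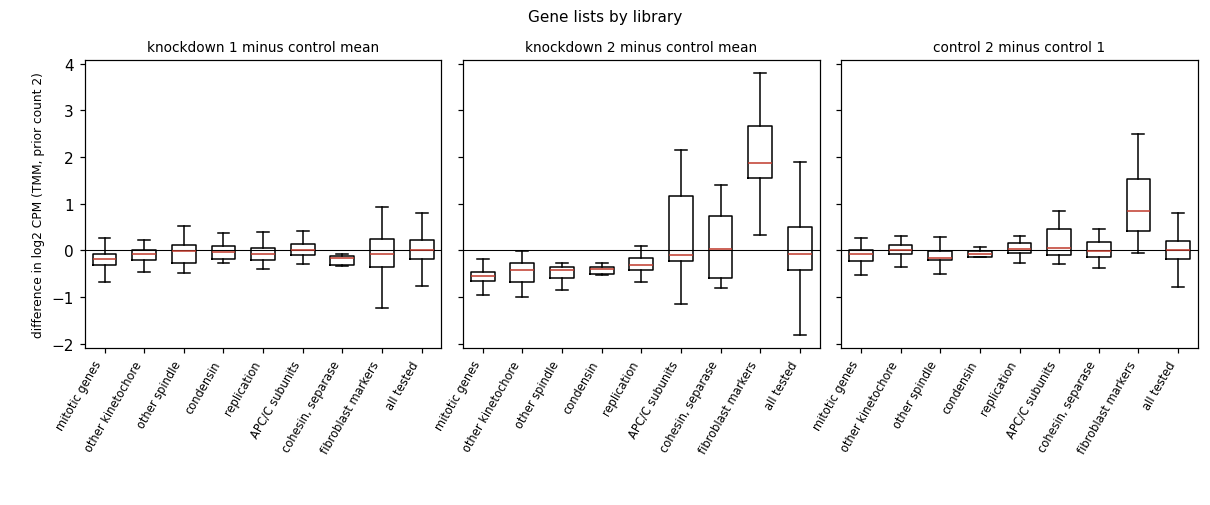
Box plots of the difference in log2 CPM (after TMM, prior count of 2) for the mitotic genes, related lists, fibroblast markers and all tested genes, for knockdown 1 and knockdown 2 against the control mean and for control 2 against control 1; boxes span the quartiles, the red line is the median and whiskers reach 1.5 interquartile ranges. The mitotic genes have medians of −0.19 in knockdown 1 and −0.55 in knockdown 2, and the fibroblast markers stand apart in knockdown 2 at 1.87.

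Other genes of mitosis outside the 52 were also lower on balance in the kinetochore, spindle and condensin lists, as were genes of DNA replication. Of 25 further tested kinetochore and checkpoint genes, 22 were negative, with a median edgeR log2 fold change of −0.24. In 16 of them both knockdown libraries lay below both controls, against 22.9% of all tested genes. SPDL1, spindly, which recruits dynein to kinetochores, had the smallest p, at 12.4 and 8.01 FPKM in the knockdown and 16.7 and 17.6 in the controls (−0.56 ± 0.20, SE, adjusted p 0.606 in edgeR). Of 29 further spindle genes, 26 were negative with a median of −0.21, and in 12 both knockdown libraries lay below both controls. KIF20B, a cytokinesis motor, had the smallest p of these 29, at −0.49 ± 0.21 (SE). All 8 condensin genes, which compact chromosomes, were tested: 7 were negative, with a median of −0.24. In 4 of the 8 both knockdown libraries lay below both controls. SMC4, the most abundant, was at −0.26 ± 0.26 (SE). None of the genes in these lists passed the edgeR test over all genes, and 1, SPDL1, had an unadjusted p under 0.05.

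The remaining lists had medians from −0.20 to 0.06. The 17 core subunits and partners of the APC/C split into 7 negative and 10 positive, with a median log2 fold change of 0.06; the most abundant, UBE2S, which extends ubiquitin chains, was at 0.00 ± 0.28 (SE). Cohesin and separase genes split into 7 negative and 4 positive, with a median of −0.08; RAD21, the cleaved cohesin subunit, was at −0.26 ± 0.25 (SE). Regulators of mitotic entry had 10 of 15 negative and a median of −0.11. DNA replication genes, the S phase counterpart, had 37 of 45 negative and a median of −0.20. In 23 of the 45 both knockdown libraries lay below both controls, against 22.9% of all tested genes. The same held for 4 of the 17 APC/C genes, 4 of the 11 tested cohesin and separase genes and 2 of the 15 regulators. ORC6 was at −0.49 ± 0.23 (SE) and PCNA, the replication clamp, at 0.19 ± 0.24 (SE). Differences between these lists and the 52 genes were not tested. Of 8 tested CDK inhibitors and pocket proteins 4 were negative and 4 positive, with a median log2 fold change of −0.01. CDKN1A, the inhibitor p21, was at 123 and 71.3 FPKM in the knockdown, against 70.2 and 62.9 in the controls, with both knockdown libraries higher. Its log2 fold change was 0.73 ± 0.24 (SE), with an unadjusted edgeR p of 0.0272 and an adjusted p of 0.577. CDKN1C, another CDK inhibitor, went the other way, at −0.73 ± 0.34 (SE). Both of its knockdown libraries lay below both controls on CPM after TMM.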

How the data were processed

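One deposited table was used. Its expected counts were estimated by the authors; the tools listed in the submitters' processing notes are RSEM 1.2.12 and Bowtie2, with the build Sscrofa11.1. Neither strandedness nor read filters are given in the sources used. The deposited expression columns were read as FPKM: the header names no unit, but ratios of count to value scale between libraries with the summed counts. All 16026 gene identifiers matched the RefSeq gene table of Sscrofa11.1, which gave positions; 22 symbols turned into dates were restored by identifier. Expected counts were rounded and tested with edgeR 4.0.16 in R 4.3.3 (TMM, filterByExpr, quasi-likelihood, no covariate, 2 residual degrees of freedom plus 3.30 shared across genes), with Benjamini-Hochberg adjustment over 11967 genes at 0.05. DESeq2 1.42.0 and limma 3.58.1 on log2(FPKM + 1) were alternatives. The edgeR script was tested on simulated data. The changes planted there were larger than the median change of the members. That run therefore does not show how often changes of the members' size would be called. CPM per library are after TMM; library differences use a prior count of 2. Members and gene lists were chosen with earlier results of these data known, so lists are described by counts and medians with no test. Values in every library are given by role group for the members of smallest p, highest level and extreme fold change, and for complexes. RSEM divides reads between similar genes, and overlapping or antisense reads may not be separated. Depth per library is given as summed counts; Poisson intervals cover counting error only.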

Additional observations from a re-analysis of the deposited data

How the results depend on the processing

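The median log2 fold change of the mitotic genes was negative under every alternative run, from −0.59 (limma on log2(FPKM + 0.1)) to −0.33 (DESeq2 size factors) among those with all 4 libraries, and from −0.56 to −0.21 leaving out a library. Total counts and upper-quartile factors moved the median of all genes to −0.18 and −0.08, and the set lay 0.36 below it with both (differences of −0.36). Negative members numbered 46 to 51. Those with the knockdown below all controls, alternatives chosen after seeing the data, numbered 38 with total counts (29.4% of all genes) and with FPKM (28.5%), and 38 to 50 leaving out a library (30.0% to 47.3%). Genes called in all numbered 0 in edgeR, 8 with total counts, 40 with every gene of at least 1 count, 133 with DESeq2, 2 with limma on log2(FPKM + 1), and 0 to 1204 leaving out a library, highest without knockdown 1 and 11 without knockdown 2; the cause was not tested. Called members numbered 0 to 3. CENPM was −0.048 with upper-quartile factors and −0.15 with total counts. With limma it was −0.18 and −0.19 at pseudocounts of 1 and 0.1, and −0.18 at a pseudocount of 1 without the filter. Leaving out each library in turn changed the sign of 7 members, whose ranges were −0.019 to 0.13 for CENPM, −0.33 to 0.20 for CDC25B, −0.36 to 0.0086 for BUB3, −0.45 to 0.11 for AURKB, −0.54 to 0.041 for BIRC5, −0.58 to 0.016 for INCENP and −0.41 to 0.049 for MKI67. The titles of both groups end in 1 and 2, with no stated meaning. Across genes, the differences between the 2 libraries of a group correlated at 0.564 between the groups, and 2 pairs cannot show a pairing. With that digit as a replicate block, a fit chosen after seeing the data with 1 residual degree of freedom, edgeR called 1338 genes, and 1 member, ECT2 (−1.09, adjusted p 0.0016). Counts of 25 to 42 in knockdown 2 limit the precision of CENPK, SPC24, CENPL, CENPM, CENPI, SKA1 and CDC25C.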
